A study of Homo sapiens with 30 samples.

Results

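The genes described here lie on chromosome 20 beyond its first 10 Mb, which takes in the inner part of the short arm and the whole long arm. They were selected on position and on measured level: chromosome 20, a start above base 10000000, and a mean level of at least 5 CPM (a gene's count scaled to the library total) over the 30 libraries. Symbols starting SLC, RPS, RPL, PSM, EIF, NDUF, ATP5, COX, COL, CEP, SNHG or BMP, and NORAD, POFUT1, DPM1, RPN2, ID1, SRSF6 and ZFAS1, were kept out. Of 60664 genes in the table, 1458 are on chromosome 20 and 1231 of those start beyond 10 Mb. The symbol rule kept out 23 that passed the other limits, and 226 remained. In the GENCODE v44 annotation 214 of the 226 are protein coding, 9 are long noncoding RNAs and 3 are pseudogenes. The first in order is SNAP25 and the last PCMTD2. 24 start below 20 Mb and 202 beyond it.

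The levels just inside and outside the rule were close. ZNF341, ZNF663P and FAM182A were the lowest members, with mean levels of 5.10, 5.24 and 5.47 CPM, and FAM182B, ENSG00000268858 and SYCP2 stayed outside with 4.94, 4.73 and 4.68 CPM. At the 10 Mb limit SNAP25, MKKS and SLX4IP were the first members, with log2 fold changes with tetracycline in the WDM line of -0.26, -0.18 and -0.30. ANKEF1, PLCB4 and PLCB1, just before the limit, had -0.06, -0.21 and -0.14.

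The RNA came from HEK293, an established human embryonic kidney line, in its Flp-In T-REx form, where tetracycline switches on a transgene placed at a single docking site. One derived line carried GFP-TIA1aWT (WT) and the other GFP-TIA1aWDM (WDM), the form with the mutation of Welander distal myopathy, an inherited muscle disease. TIA1 is an RNA-binding protein that regulates splicing and translation and gathers in stress granules. Each line was sampled as cytosol extract untreated, with tetracycline, and with tetracycline plus 0.5 mM sodium arsenite for 60 min, and as the GFP-pulled granule fraction with tetracycline and with tetracycline plus arsenite, in 3 libraries a group. Groups called arsenite here therefore also received tetracycline. Each form of TIA1 is carried by 1 line and the labels do not say whether a line is 1 clone, so the mutation and the line cannot be told apart, nor can tetracycline and the protein it induces. The labels also do not say that replicates are separate cultures, so p-values measure the spread between these libraries, which may be technical.

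Chromosome 20 holds no single pathway. Its long arm carries genes of cell division (AURKA, TPX2, UBE2C and MYBL2), the apoptosis inhibitor BCL2L1, the DNA methyltransferase DNMT3B, the kinase SRC, the G-protein subunit locus GNAS and many zinc-finger and RNA-processing genes. Genes that sit together on a chromosome arm need have no function in common.

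Libraries held 5906167 to 27419145 counts. The epithelial and kidney-line markers KRT8 (30.9 to 177 CPM), KRT18, CDH2 and VIM were present in all 30 libraries, and the kidney factors PAX2 and LHX1 were low, with medians of 4.35 and 1.72 CPM. Of 11 markers of blood, fibroblast and skeletal muscle the summed level was 4.26 to 10.9 CPM, and HBB had no count in 30 of 30 libraries.

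With tetracycline the chromosome 20 genes were lower in the WDM line, by a small step shared along the chromosome. NFS1, the cysteine desulfurase that supplies sulfur for iron-sulfur clusters, the mitochondrial acetyl-CoA synthetase ACSS1, the adenosine deaminase ADA and the mitotic kinase AURKA were among 34 of 226 genes called lower, and none was called higher. Calls rest on edgeR's quasi-likelihood test with Benjamini-Hochberg adjustment over all 16670 genes tested in the cytosol, with a threshold of 0.05 on the adjusted p, which is the p given throughout. Over all genes, 3.23% were called lower and 3.07% higher. The members' median log2 fold change was -0.18, against 0.00 over all genes, and 186 of 226 were negative. No member was called higher by DESeq2 either, while 5 had an unadjusted edgeR p under 0.05 upwards, 1 was called higher with the replicate block and 2 when these groups were fitted alone. The chromosome itself was chosen by the measured fall of its genes in this contrast, so the counts describe the fall and do not test it. In bulk RNA, fewer cells that express a gene and less RNA per cell cannot be told apart.

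The share of all counts that came from these genes was 1.46% to 1.48% in untreated WDM cytosol and 1.26% to 1.31% with tetracycline. In the WT line it was 1.57% to 1.61% untreated and 1.60% to 1.64% with tetracycline. The WDM libraries thus lay under the WT libraries in both conditions, with no overlap. With arsenite the share was 1.27% to 1.34% in WDM and 1.66% to 1.69% in WT cytosol, and in the granule fraction it was 1.09% to 1.21% against 1.49% to 1.52% with tetracycline and 1.26% to 1.34% against 1.54% to 1.65% with arsenite. Mitochondrially encoded genes took 0.166% to 0.197% of counts in untreated WDM cytosol and 0.120% to 0.132% with tetracycline, and 0.148% to 0.166% and 0.0989% to 0.142% in WT. The summed markers of other cell types went from 4.81 to 5.60 CPM untreated to 7.89 to 8.53 CPM with tetracycline in WDM, and from 6.53 to 9.17 CPM to 7.86 to 10.5 CPM in WT. Their part in the result was not tested.

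**Figure D1:**
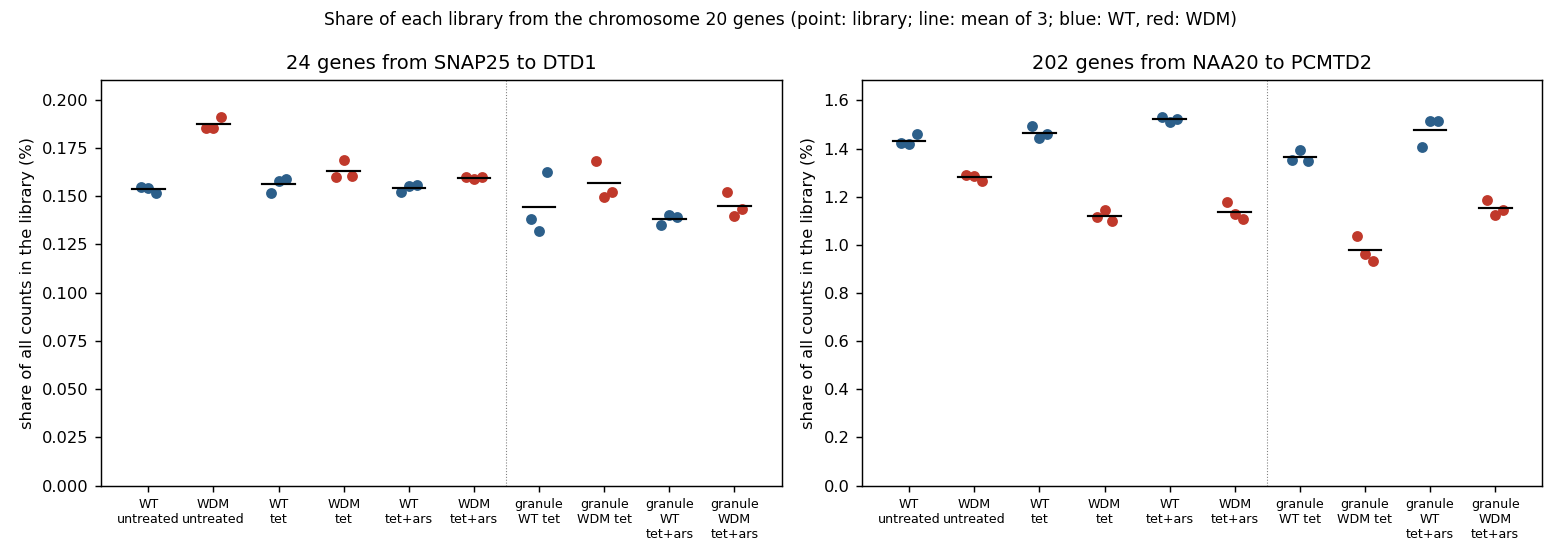
Share of each library's counts (%) from the 24 genes from SNAP25 to DTD1 (left) and the 202 genes from NAA20 to PCMTD2 (right), by group; points are libraries, lines are means of 3, blue is WT and red is WDM. In the right panel every WDM library lies under every WT library of its condition; in the left panel untreated WDM is the highest cytosol group, at 0.185% to 0.191%.

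The largest falls were small in absolute terms. NFS1 (chr20:35668052-35699355, minus strand) measured 27.5, 27.5 and 26.4 CPM in the 3 untreated WDM libraries and 14.9, 19.2 and 17.5 CPM with tetracycline. The groups did not overlap, and the log2 fold change was -0.63 (SE 0.11, edgeR adjusted p = 0.0021). In WT it measured 22.7, 23.7 and 25.6 CPM untreated and 19.5, 20.0 and 22.0 CPM with tetracycline, a log2 fold change of -0.18 that was not called (edgeR adjusted p = 0.345). Untreated WDM was the highest of these 4 groups for NFS1 and tetracycline-treated WDM the lowest.

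ACSS1, which makes acetyl-CoA from acetate in mitochondria, went from 60.1, 64.9 and 58.3 CPM to 38.0, 38.1 and 43.4 CPM in WDM (log2 fold change -0.59, SE 0.12, edgeR adjusted p = 0.00536). Its WT libraries measured 50.6, 58.4 and 57.0 CPM and then 43.0, 43.3 and 41.3 CPM, a log2 fold change of -0.34 with an edgeR adjusted p of 0.1. ACSS1 was thus lower with tetracycline in all libraries of both lines, and passed the test in WDM. ADA, which deaminates adenosine, went from 34.5, 36.1 and 30.9 CPM to 21.6, 24.2 and 20.6 CPM (log2 fold change -0.59, SE 0.15, edgeR adjusted p = 0.019). The groups did not overlap.

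CPNE1, a calcium-dependent membrane-binding protein, measured 49.9, 52.3 and 51.7 CPM untreated and 35.6, 39.9 and 33.0 CPM with tetracycline in WDM, and 61.4, 60.3 and 63.4 CPM and 59.9, 55.1 and 53.4 CPM in WT. Its log2 fold change was -0.48 in WDM (SE 0.09, edgeR adjusted p = 0.00231) and -0.10 in WT. UQCC1, an assembly factor of respiratory complex III, had 111, 111 and 106 CPM and then 76.1, 84.6 and 83.3 CPM in WDM (log2 fold change -0.40, SE 0.07, edgeR adjusted p = 0.00223). Its WT libraries stayed between 108 and 122 CPM in both conditions. ENSG00000278041, a gene with no symbol, had the lowest value of all members, -0.95 (SE 0.20, edgeR adjusted p = 0.00703), at levels of 8.83 to 11.9 CPM untreated and 3.61 to 6.52 CPM with tetracycline.

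FAM210B, a mitochondrial protein of erythroid iron use, PROCR, the receptor of activated protein C, EDEM2 of glycoprotein disposal in the endoplasmic reticulum, the elongation factor TCEA2, the zinc-finger gene ZNF337 and the helicase DHX35 were also among the 12 largest called falls with groups apart, with log2 fold changes of -0.53 to -0.49. Of ZNF337's exon length 66% lies in exons annotated on the opposite strand and 26% of CPNE1's lies in exons of other genes on its own strand, so their counts are uncertain where the counting did not use strand or shared reads. The count of 34 became 11 without untreated WDM replicate 1 or tetracycline-treated WDM replicate 3, 14 without tetracycline-treated WDM replicate 1, 16 and 17 without untreated WDM replicates 3 and 2, and 38 without tetracycline-treated WDM replicate 2, while the median stayed between -0.21 and -0.16. Among the named genes the calls of TCEA2 and AURKA were lost in 5 of 12 alternatives, those of ADA, FAM210B, EDEM2 and PREX1 in 4, those of PROCR and TTI1 in 3 and that of STMN3 in 6. Of the 153 members that overlap no other gene on their strand 21 were called lower.

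Genes that did not fall formed the other end of the same range. In WDM 40 members had a log2 fold change at or above 0, with a median of 0.11. Among those with at least 10 CPM in untreated WDM, the highest were NCOA5, a nuclear receptor coactivator, CTSA, the lysosomal protective protein, and RBBP9, a serine hydrolase. None of these 3 was called in WDM, while NCOA5 and CTSA were called higher in WT. With only the 6 WDM libraries fitted NCOA5 and CTSA passed in WDM (edgeR adjusted p = 0.0436 and 0.0471), and with the replicate block RBBP9 did (edgeR adjusted p = 0.044).

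NCOA5 (chr20:46060991-46089962, minus strand) measured 23.4, 27.8 and 24.4 CPM untreated and 32.0, 28.8 and 35.5 CPM with tetracycline in WDM (log2 fold change 0.38, SE 0.13, edgeR adjusted p = 0.0949). In WT it went from 30.1, 30.4 and 35.5 CPM to 44.4, 39.8 and 45.3 CPM (0.47, edgeR adjusted p = 0.0393). Neither line's groups overlapped, and the WDM libraries with tetracycline reached about the level of untreated WT. CTSA went from 22.4, 21.1 and 20.7 CPM to 24.8, 27.8 and 27.3 CPM in WDM (log2 fold change 0.34, SE 0.11, edgeR adjusted p = 0.0799) and from 31.9, 32.3 and 36.1 CPM to 44.4, 40.4 and 46.0 CPM in WT (0.42, edgeR adjusted p = 0.0306). RBBP9 went from 95.1, 90.5 and 89.8 CPM to 109, 128 and 103 CPM in WDM (0.33, edgeR adjusted p = 0.0815), again without overlap, and had 0.37 in WT (edgeR adjusted p = 0.0539).

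Among the others at this end, FLRT3, a membrane adhesion protein, had 0.27 in WDM and 0.55 in WT, where it was called. PYGB, the brain form of glycogen phosphorylase, had 0.18 and 0.33, and KIF3B, a kinesin-2 motor subunit, 0.15 and 0.29, both called in WT. ZNF335, HELZ2, ZNF512B and SAMHD1, the dNTP hydrolase, had 0.16 to 0.20 in WDM and were called in neither line. HELZ2 was the only one of these 10 whose WDM value was above its WT value (0.19 against 0.10), a difference that was not called. Of the 40 members at or above 0 in WDM, 8 were called higher in WT, their WT median was 0.25, and in 32 the WDM value was the lower of the pair.

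In the WT line tetracycline moved these genes little. There 3 were called lower, ZNF133, PHF20 and DHX35, and 9 higher, FLRT3, PYGB, KIF3B, AAR2, RPRD1B, SDC4, CTSA, NCOA5 and YTHDF1, against a background of 2.39% lower and 2.93% higher. The median was 0.05 and 91 of 226 were negative. All 3 genes called lower were called lower in WDM too. With the replicate number as a block, 17 members were called higher and 4 lower, while with library size in place of TMM scaling there were 5 and 3. Leaving out 1 library left 0 called lower in 5 of 6 cases and 7 without tetracycline-treated WT replicate 1. The 9 called higher became 25 without that library, 0 to 2 without any other of the 6, 17 by DESeq2 and 0 when these groups were fitted alone.

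Across the 226 genes the responses of the lines ran in parallel, with WDM shifted down. Pearson's r between them was 0.75 and Spearman's rho 0.72, against r = 0.49 over all 16670 genes. These are descriptions across genes, which share libraries and are not independent replicates, and the pair of contrasts share no library. The 16670 are an unlike set, since they include genes under 5 CPM. The median SE in WDM was 0.14 over them and 0.11 over the members. The interaction, that is the WDM response minus the WT response, had a median of -0.23 and was negative for 210 of 226 members.

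No member's interaction was called by edgeR or DESeq2 (background 0.00600% lower and 0.0120% higher). At an unadjusted edgeR p under 0.05, 64 members were lower and none higher, against 2.19% of all genes lower. By DESeq2 65 members passed that threshold. The interaction contains the WDM contrast by whose fall the chromosome was chosen. These counts and the interaction's median and signs therefore describe it and do not test it. The 5 smallest unadjusted p-values belonged to DSTN, an actin-severing protein, SNX5, a sorting nexin of the retromer, UQCC1, MYBL2 and FAM83D, with differences of -0.37, -0.36, -0.35, -0.38 and -0.48 and an edgeR adjusted p of 0.826 each. The 16 members with a positive interaction include INSM1, PXMP4, DYNLRB1, PKIG, ATP9A, HELZ2, ARFRP1 and MYT1.

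**Figure D2:**
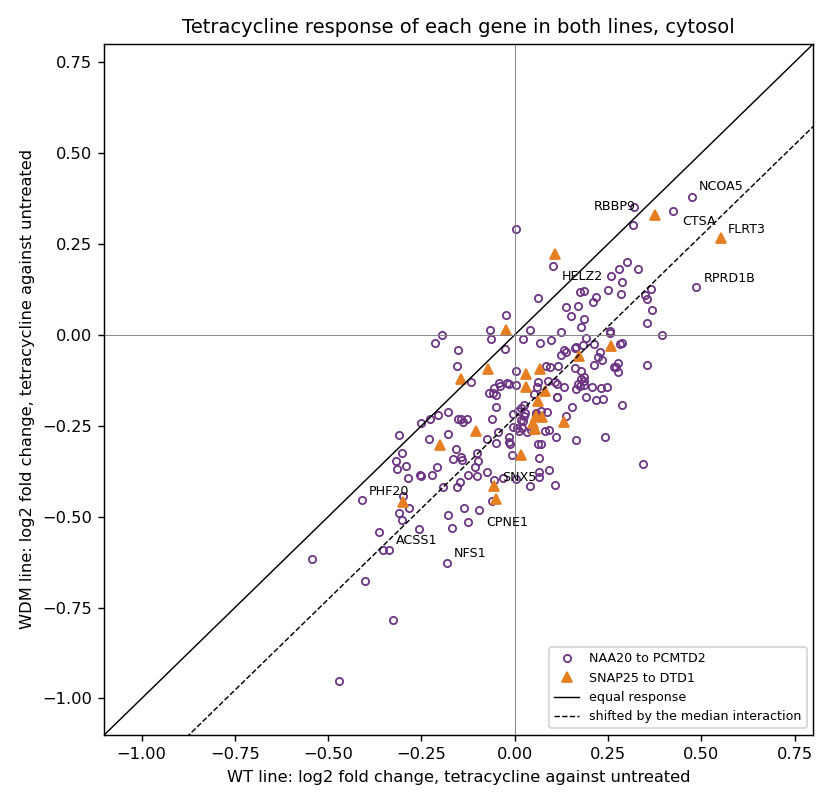
Log2 fold change with tetracycline in WT (x axis) and WDM (y axis) cytosol for each of 226 genes; triangles are SNAP25 to DTD1 and circles NAA20 to PCMTD2. Most points lie under the solid line of equal response, near the dashed line shifted by the median interaction of -0.23.

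MYBL2, a transcription factor of the cell cycle, measured 211, 224 and 209 CPM in untreated WDM and 180, 203 and 189 CPM with tetracycline, but 246, 243 and 280 CPM and then 300, 292 and 285 CPM in WT. Its groups did not overlap in either line and moved in opposite directions. SNX5 measured 215, 225 and 225 CPM in untreated WDM and 156, 170 and 164 CPM with tetracycline (log2 fold change -0.42, SE 0.07, edgeR adjusted p = 0.00222). Its WT libraries measured 155, 163 and 158 CPM and 138, 155 and 150 CPM, so untreated WDM stood apart from the other 3 groups. Untreated WDM was also the highest group for DSTN, with 198 to 207 CPM in untreated WDM and 144 to 180 CPM in the other 9 libraries.

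**Figure D3:**
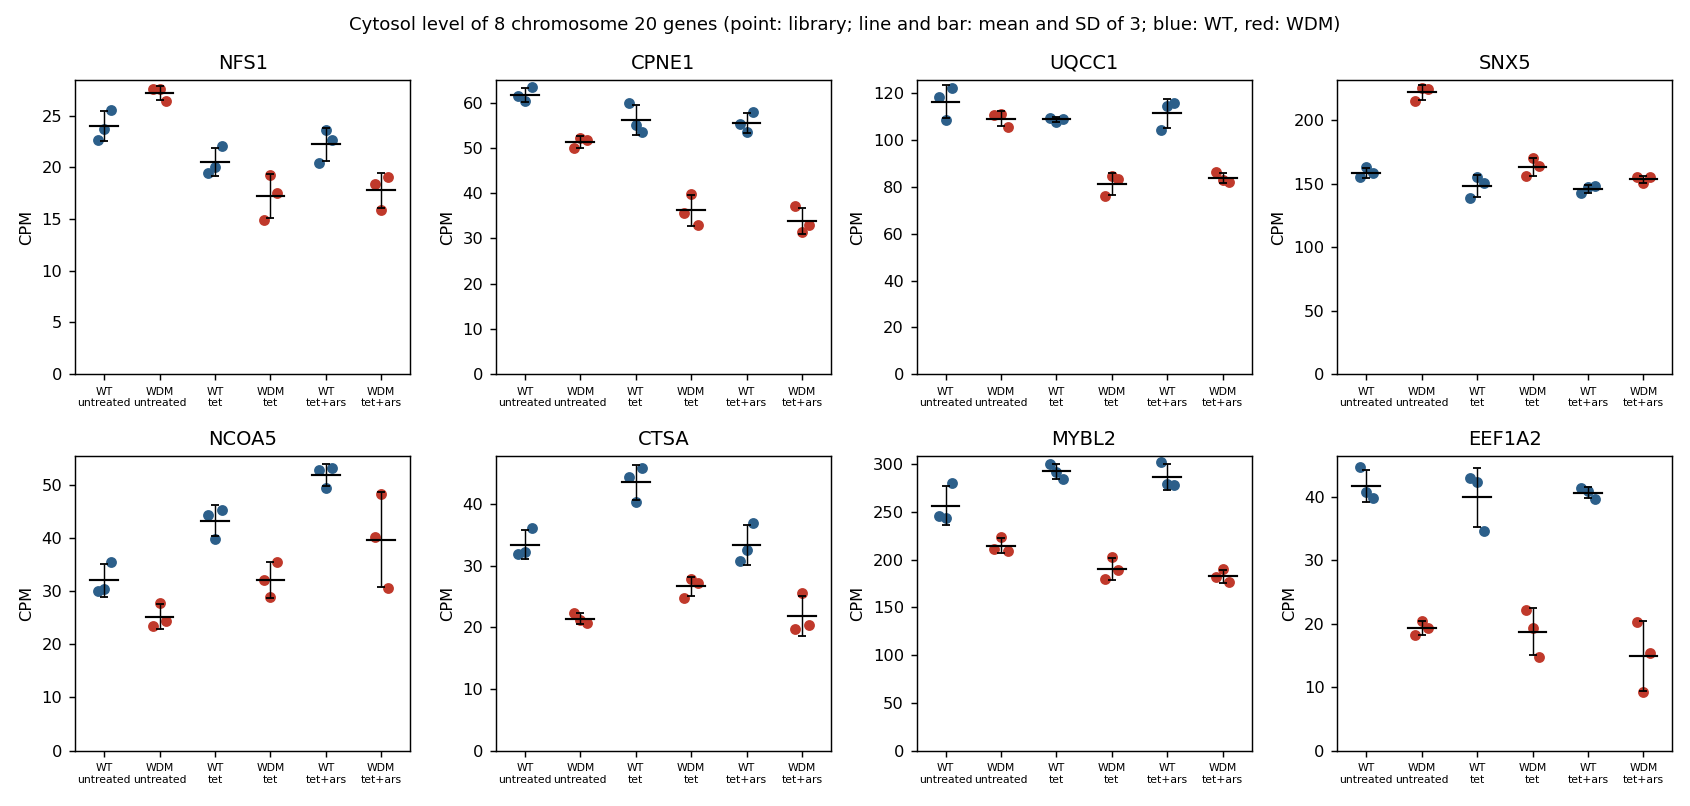
CPM of NFS1, CPNE1, UQCC1, SNX5, NCOA5, CTSA, MYBL2 and EEF1A2 in the 18 cytosol libraries; points are libraries, lines and bars are means and SDs of 3, blue is WT and red is WDM. SNX5 is high in untreated WDM alone, CPNE1 and UQCC1 are lowest in WDM with tetracycline, and EEF1A2 is lower in WDM in all 3 conditions.

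The fall with tetracycline ran along the whole region. In windows of 5 Mb from SNAP25 to PCMTD2 the WDM medians lay between -0.29 and -0.09, and each window held called genes. The 24 genes below 20 Mb had a median of -0.17 with 5 called, and the 202 beyond it -0.18 with 29 called. Among 54 chromosome 20 genes of at least 5 CPM that start before 10 Mb, outside the rule, 5 were called lower and 1 higher, with a median of -0.10. The 23 kept out by symbol had a median of -0.21, with 6 lower.

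**Figure D4:**
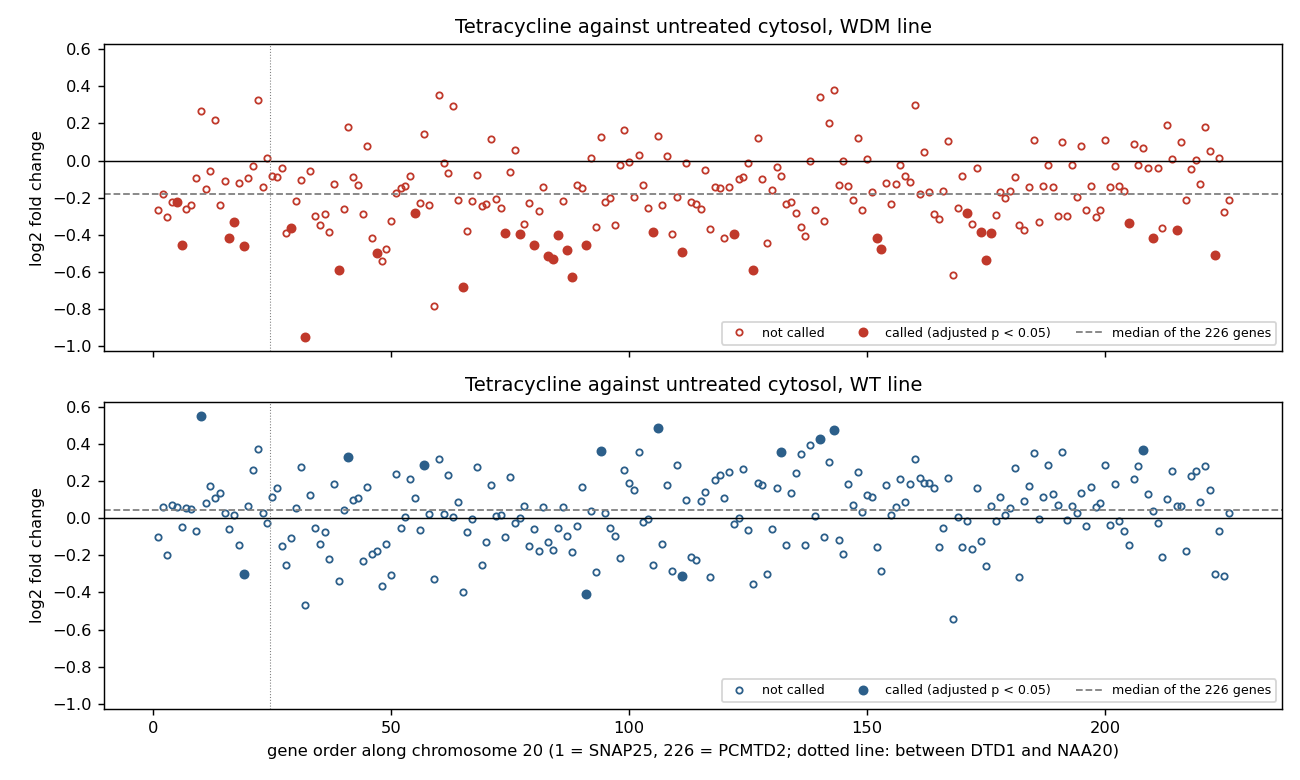
Log2 fold change with tetracycline for the 226 genes in their order along chromosome 20, in WDM (top) and WT (bottom) cytosol; filled points passed the test, the dashed line is the median and the dotted line marks the gap between DTD1 and NAA20. In WDM 186 of 226 points sit under 0, with a median of -0.18 against 0.05 in WT.

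The comparison of the lines with each other showed a boundary that the tetracycline response did not. With tetracycline 115 of 226 genes were called lower in WDM than in WT cytosol and 4 higher (background 6.84% and 5.80%), with a median of -0.37. Of those 115, 114 start beyond 20 Mb, and the other is FLRT3. With arsenite 125 were lower and 2 higher (background 5.37% and 4.98%), with a median of -0.39, and the 125 all start beyond 20 Mb. In untreated cells 44 were lower and 18 higher (background 5.60% and 4.19%), with a median of -0.15. The comparison with tetracycline uses the tetracycline-treated WDM libraries of the contrast by whose fall the chromosome was chosen. Its counts and median therefore describe the members and do not test them. The untreated comparison uses the untreated WDM libraries of that contrast. The limit of 20 Mb was chosen after the values were seen, so the 2 sides are described and not tested.

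Below 20 Mb none of 24 genes was called lower in untreated WDM cytosol by edgeR, and none had an unadjusted p under 0.05 in that direction. There 12 were called higher, MKKS, JAG1, BTBD3, ISM1, TASP1, ESF1, KIF16B, DSTN, SNX5, MGME1, ZNF133 and DZANK1, with log2 differences of 0.29 to 0.53 and a median over the 24 of 0.34. With tetracycline that median was 0.08, and with arsenite 0.07. Beyond 20 Mb the median was -0.20 untreated, -0.41 with tetracycline and -0.43 with arsenite. In 5 Mb windows beyond 20 Mb the medians with tetracycline lay between -0.47 and -0.36, and in the windows before it they were 0.14 and 0.06. The 54 genes before 10 Mb followed the nearer side, with medians of 0.30, 0.17 and 0.13 in the 3 conditions, and 19, 9 and 5 called higher.

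**Figure D5:**
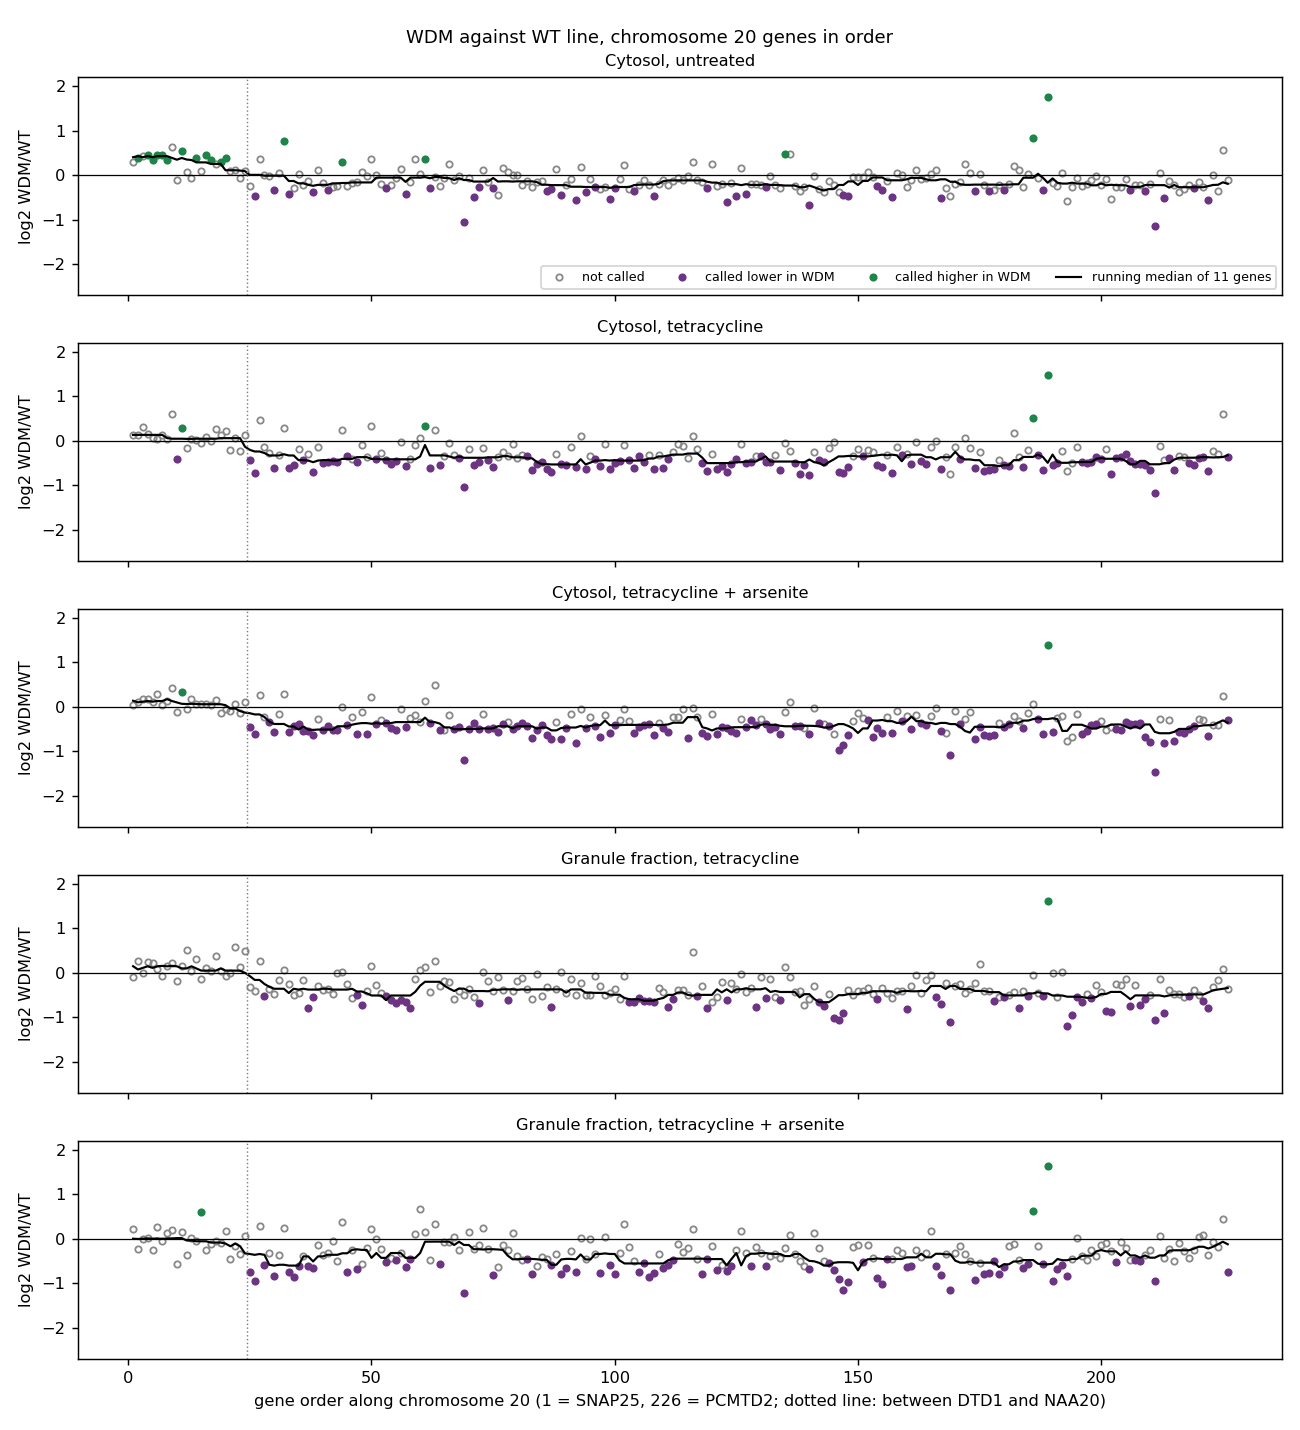
Log2 difference between WDM and WT for the 226 genes in order along chromosome 20, in 3 cytosol and 2 granule conditions; purple points were called lower in WDM, green higher, open not called, and the black line is a running median of 11 genes. The running median steps down at the dotted line between DTD1 and NAA20 in every panel, from near or above 0 to about -0.2 in untreated cytosol and about -0.4 in the others.

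The genes on both sides of the step are neighbours in this set. DTD1, which removes D-amino acids from mischarged tRNAs, starts at base 18587942 and had line differences of 0.10 untreated, 0.14 with tetracycline and 0.10 with arsenite, none called. NAA20, the catalytic subunit of the N-terminal acetyltransferase NatB, starts at base 20017310 and had -0.23, -0.43 and -0.46, the last 2 called (edgeR adjusted p = 0.00121 and 0.000663). CRNKL1, a spliceosome factor, came next with -0.47, -0.72 and -0.60, all called, and the exonuclease XRN2 had -0.33, -0.60 and -0.57, all called. Exceptions lay on both sides. Beyond the step 14 of 202 genes were at or above 0 with tetracycline, INSM1, ENSG00000278041, NINL, FRG1BP, ENSG00000285382, DNMT3B, ENSG00000260257, EPB41L1, EMILIN3, TSHZ2, PMEPA1, GNAS-AS1, CTSZ and MYT1. Before it 5 of 24 were negative, FLRT3, SNRPB2, RRBP1, POLR3F and SEC23B.

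The 5′ flanks of the genes beside the step, of a gene that fell and of a gene that did not, are printed as examples. They are bases just upstream of the RefSeq start on GRCh38.p14, with each Sp1 box (GGGCGG, or CCGCCC on the other strand) in capitals. For DTD1 the 138 bases outside annotated exons are given (chr20:18587804-18587941, plus strand), for NAA20 chr20:20017040-20017289 (plus), for FAM210B chr20:56358724-56358973 (plus) and for NCOA5 chr20:46089963-46090212 (minus), each of 250 bases.
DTD1: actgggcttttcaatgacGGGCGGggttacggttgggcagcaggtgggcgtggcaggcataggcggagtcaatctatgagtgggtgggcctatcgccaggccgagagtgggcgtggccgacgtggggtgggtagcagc
NAA20: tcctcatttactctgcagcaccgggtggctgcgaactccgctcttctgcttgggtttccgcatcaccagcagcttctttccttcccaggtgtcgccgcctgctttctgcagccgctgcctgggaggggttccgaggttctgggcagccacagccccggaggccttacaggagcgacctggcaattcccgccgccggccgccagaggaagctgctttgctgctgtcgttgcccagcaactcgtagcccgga
FAM210B: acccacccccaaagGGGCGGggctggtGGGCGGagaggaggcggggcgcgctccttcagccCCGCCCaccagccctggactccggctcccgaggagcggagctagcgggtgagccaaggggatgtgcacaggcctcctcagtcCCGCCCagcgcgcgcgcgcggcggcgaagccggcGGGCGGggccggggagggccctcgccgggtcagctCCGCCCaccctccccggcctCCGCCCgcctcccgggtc
NCOA5: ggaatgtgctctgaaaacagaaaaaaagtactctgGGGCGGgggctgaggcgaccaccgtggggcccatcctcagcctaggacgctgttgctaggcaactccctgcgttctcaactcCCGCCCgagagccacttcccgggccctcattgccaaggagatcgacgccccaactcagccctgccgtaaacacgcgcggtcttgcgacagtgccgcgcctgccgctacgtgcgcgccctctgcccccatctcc
The numbers of Sp1 boxes in them are 1, 0, 7 and 2. Of the 226 genes 183 matched a promoter by symbol. An Sp1 box was found in the 250 bases of 51.7% of the 29 matched genes called lower with tetracycline in WDM, 73.1% of 119 with a negative value that was not called and 60.0% of 35 at or above 0, against 42.3% of all 27305 promoters in the table. The ETS core CCGGAAG, on both strands, was found in 13.8%, 16.8% and 31.4%, against 8.82% of all promoters. The median GC content was 66.0%, 67.6% and 66.0%, against 58.0%. These matches are descriptions of letters in a window.

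Position and tetracycline response separated genes differently. The 34 genes called lower with tetracycline in WDM had a median line difference of -0.06 untreated, with 2 called lower and 6 higher, and -0.32 with tetracycline, with 16 lower. The 40 at or above 0 had -0.30 untreated, with 15 lower, and -0.42 with tetracycline, with 25 lower. Both comparisons with untreated WDM use the same libraries, so a low untreated WDM level enters them with opposite signs. Likewise the line difference with tetracycline shares the tetracycline-treated WDM libraries with the contrast that sorted these genes. A low level there lowers both values. CTSA, one of the 40 at or above 0, had 20.7 to 22.4 CPM in untreated WDM against 31.9 to 36.1 CPM in WT (log2 difference -0.68, edgeR adjusted p = 0.0004). Its line difference was -0.76 with tetracycline (edgeR adjusted p = 6.32e-05).

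Some genes differed between the lines far more than their neighbours. CTSZ, the lysosomal protease cathepsin Z, measured 76.7, 79.6 and 75.0 CPM in untreated WDM and 21.1, 21.9 and 24.0 CPM in WT, a log2 difference of 1.75 (SE 0.10, edgeR adjusted p = 1.42e-10). It was 1.48 with tetracycline, 1.38 with arsenite and 1.61 and 1.63 in the granule fraction, and CTSZ was the only member called higher in all 5 comparisons of the lines. Exons annotated on the opposite strand cover 32% of its exon length.

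EEF1A2, the elongation factor form of muscle and neurons, measured 18.2, 20.4 and 19.2 CPM in untreated WDM and 44.6, 40.7 and 39.9 CPM in WT (log2 difference -1.15, SE 0.18, edgeR adjusted p = 0.000261). The difference was -1.16 with tetracycline and -1.46 with arsenite, while within a line tetracycline left it at -0.04 in WDM and -0.02 in WT. PXMP4, a peroxisomal membrane protein, measured 12.3, 11.3 and 11.7 CPM in untreated WDM and 21.2, 25.7 and 24.6 CPM in WT (log2 difference -1.05, SE 0.11, edgeR adjusted p = 1.96e-06), with -1.04 with tetracycline and -1.19 with arsenite. DNMT3B, which methylates DNA de novo, was higher in WDM untreated (0.37, edgeR adjusted p = 0.00752) and with tetracycline (0.34, edgeR adjusted p = 0.012), and had 0.14 with arsenite, which was not called. GNAS-AS1, antisense to GNAS, was higher untreated (0.83, edgeR adjusted p = 0.00166) and with tetracycline (0.51, edgeR adjusted p = 0.0442). Of its exon length 43% lies in exons of the opposite strand. KIF16B, an endosomal kinesin below 20 Mb, was higher in all 3 cytosol conditions, by 0.53, 0.30 and 0.33, but the call with arsenite was lost in 6 of 12 alternatives, with an edgeR adjusted p of up to 0.156 (without arsenite-treated WDM replicate 1). The call of DNMT3B with tetracycline was lost in 2 of 12, with up to 0.0758. The 4 members called higher with tetracycline became 1 without tetracycline-treated WDM replicate 1. CTSZ kept its call there in all 12 alternatives, so GNAS-AS1 and KIF16B were not called in that fit.

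In all 3 cytosol conditions 43 members were called lower in WDM, against 2.96% of all genes, and 160 were negative in all 3. The 3 comparisons use different libraries of the same lines. The untreated and tetracycline ones use WDM libraries of the contrast by which the chromosome was chosen. The untreated count moved with single libraries: it was 19 without WT replicate 2, WT replicate 3 or WDM replicate 1, 20 and 23 without WDM replicates 2 and 3, 25 with no low-count filter and 104 when these 6 libraries were fitted alone. With tetracycline it was 71 in such a fit.

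The granule fraction, which comes from other libraries than the cytosol, showed the same step. With tetracycline 58 of 226 were called lower in WDM and 1 higher, CTSZ (background 2.95% and 2.60% of 18366 genes), with a median of -0.41. With arsenite 74 were lower and 3 higher, CTSZ, GNAS-AS1 and RRBP1 (background 3.84% and 4.11%), with a median of -0.37. Every one of the 58 and the 74 starts beyond 20 Mb. Below it no gene was called lower by edgeR in either condition, with 0 and 3 at an unadjusted p under 0.05, and the medians were 0.11 and -0.04. The first count was 17, 23 and 24 without WDM replicates 3 and 2 and WT replicate 2 of the tetracycline-treated granules. The second was 33 and 40 without WDM replicates 1 and 3 and 37 and 42 without WT replicates 1 and 3 of the arsenite-treated granules.

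14 genes were called lower in WDM in all 5 comparisons, against 0.916% of the 16159 genes tested in all, and 151 were negative in all 5. The 14 are APMAP, TPX2, KIF3B, CPNE1, ACTR5, MYBL2, TTPAL, STK4, ZNF334, ARFGEF2, MOCS3, RAE1, NELFCD and EEF1A2. They include TPX2, which activates AURKA on the spindle, the Hippo pathway kinase STK4, the ARF exchange factor ARFGEF2 and NELFCD of the negative elongation factor. Of NELFCD's exon length 97% lies in exons annotated on the opposite strand. Its counts are therefore uncertain where the counting did not use strand. STK4 measured 158, 132 and 129 CPM in WDM granules and 219, 205 and 194 CPM in WT granules with tetracycline. ZNF334, a zinc-finger gene, measured 17.1, 15.8 and 17.4 CPM against 38.2, 29.1 and 37.2 CPM in arsenite-treated granules (log2 difference -1.15, SE 0.17, edgeR adjusted p = 4.81e-05). MIR646HG, a microRNA host RNA, had the largest difference with tetracycline among members called lower, 258, 164 and 174 CPM in WDM against 403, 481 and 471 CPM in WT (-1.20, SE 0.17, edgeR adjusted p = 2.19e-05). NFATC2, a transcription factor of calcium signalling, had -1.11 with tetracycline and -1.16 with arsenite. RRBP1, a ribosome-binding protein of the endoplasmic reticulum, was higher in arsenite-treated WDM granules, with 174, 198 and 213 CPM against 98.8, 120 and 147 CPM (0.60, edgeR adjusted p = 0.027). That call was lost in 4 of 12 alternatives, with an edgeR adjusted p of up to 0.205 (without arsenite-treated WT granule replicate 1), and the call of GNAS-AS1 there in 7 of 12, with up to 0.323 (without the same library).

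Across the 226 genes the line difference in cytosol and in granules had a Pearson r of 0.68 with tetracycline and 0.72 with arsenite. Spearman's rho was 0.55 and 0.63. Over the 16159 genes tested in both, which include genes under 5 CPM, r was 0.75 and 0.79. These describe genes of the same pair of lines, not independent replicates. Setting granules against cytosol, 104 members were called lower and 61 higher in WDM (background 35.3% and 35.8% of 18141 genes), with a median of -0.22. In WT 106 were lower and 75 higher (background 36.2% and 39.5%), with a median of -0.23. Among all genes of at least 5 CPM, 42.8% were lower and 34.5% higher in WDM, with a median of -0.13. In WT those shares were 44.2% and 36.7%, with a median of -0.14. The members were thus spread over both ends.

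ROMO1, a mitochondrial inner-membrane protein, SCAND1 and DYNLRB1, a dynein light chain, were the most depleted from granules in both lines. ROMO1 measured 5.25, 8.36 and 10.2 CPM in WDM granules and 68.7, 86.5 and 63.8 CPM in WDM cytosol (log2 difference -3.17, SE 0.19), and -3.70 in WT. TSHZ2 and MACROD2, which span 522973 and 2057829 bases, were among the most enriched. TSHZ2, a zinc-finger homeobox gene, measured 138, 81.6 and 93.2 CPM in WDM granules against 13.4, 7.58 and 11.9 CPM in cytosol (log2 difference 3.24, SE 0.30), and 3.78 in WT. MACROD2, an ADP-ribose hydrolase, had 3.20 in WDM and 3.61 in WT. ZNF663P, a pseudogene, had 3.91 in WT, with 73% of its exon length in exons of other genes on its strand.

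With arsenite, which followed tetracycline, 93 members were lower and 11 higher than in untreated WDM cytosol (background 20.0% and 19.0%), with a median of -0.20. The untreated WDM libraries also enter the contrast by which the chromosome was chosen, so these counts describe the members and do not test them. In WT 41 were lower and 36 higher (background 17.1% and 15.2%), with a median of 0.03. With library size in place of TMM the WT split was 27 lower and 55 higher. Of the 34 genes called lower with tetracycline in WDM 32 were also called lower with arsenite, but both comparisons share the untreated libraries. DSTN, for example, had -0.24 with tetracycline, which was not called, and -0.62 with arsenite in WDM (edgeR adjusted p = 4.68e-06), against 0.13 and -0.29 in WT. RPRD1B, a regulator of RNA polymerase II, had 0.13 and 0.51 in WDM against 0.49 and 0.81 in WT.

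Measured from the tetracycline-treated cells instead, arsenite left the members near the other genes in both lines. In WDM 45 were lower and 24 higher (background 14.8% and 14.1%), with a median of -0.05. In WT 40 were lower and 33 higher (background 15.4% and 13.7%), with a median of -0.07. Among all genes of at least 5 CPM, 19.0% were lower and 14.0% higher in WDM, and 20.5% and 13.7% in WT. With library size alone the splits were 31 lower and 36 higher in WDM and 15 lower and 49 higher in WT, since the TMM factors of WT differed by 0.14 on the log2 scale between these conditions. The WDM counts were 24 lower and 15 higher without tetracycline-treated WDM replicate 2, and 48 and 30 without replicate 1. When these groups were fitted alone 10 were higher. The WT count of genes lower was 61 without tetracycline-treated WT replicate 1, 19 and 20 without replicates 2 and 3 of that group and 21 and 20 without replicates 1 and 2 of the arsenite-treated group. The 33 called higher became 47, 16 and 14 without replicates 1, 2 and 3 of the tetracycline-treated group. They became 19 and 16 without replicates 1 and 2 of the arsenite-treated group.

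By role, the counts are to be read against the 15.0% of the 226 and the 3.23% of all genes called lower with tetracycline in WDM; lists were not compared by a test. Lists were drawn up from general knowledge of chromosome 20 genes, and a gene can stand in more than one. Of 12 genes listed as mitochondrial 5 fell, MGME1, ACSS1, ACSS2, UQCC1 and FAM210B, with a median over the list of -0.32. ACSS2 is the form of acetyl-CoA synthetase found in cytosol and nucleus, and NFS1, which works in mitochondria, stands in none of the lists. Of 23 listed as metabolic enzymes 7 fell, ACSS1, ACSS2, AHCY, which breaks down S-adenosylhomocysteine, the GPI-anchor transamidase subunit PIGU, ADA, the sulfatase SULF2 and DHX35, an RNA helicase, with a median of -0.26. No gene of either list was called higher by edgeR, and 0 had an unadjusted p under 0.05 upwards. ADNP, listed as a metabolic enzyme, also stands in the list of transcription and chromatin.

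Among 34 genes of transcription and chromatin 6 fell, ZNF133, ZNF337, PHF20, ZFP64, TCFL5 and TCEA2 (median -0.22), and NCOA5 had the highest value. Of 24 genes of RNA processing 3 fell, DHX35, CPNE1 and TTI1 (median -0.21), of which CPNE1 binds membranes and TTI1 is a cochaperone of large kinases. YTHDF1, a reader of methylated adenosine, had 0.07 in WDM, and 0.37 in WT (edgeR adjusted p = 0.0296). In the lists of membrane traffic (21 genes), the cytoskeleton and adhesion (15), ubiquitin and proteolysis (11), signalling (17) and DNA replication and repair (8), 2, 2, 1, 0 and 0 fell, with medians of -0.14, -0.16, -0.14, -0.13 and -0.05. Those that fell were SNX5 and TM9SF4, PREX1 and STMN3, and EDEM2. Of the signalling genes 4, and of the replication genes 0, were lower at an unadjusted edgeR p under 0.05. The 8 members with the highest mean level in cytosol, CSE1L, RBM39, GNAS, XRN2, YWHAB, PRELID3B, SEC23B and MYBL2, had -0.30 to -0.10 and none was called.

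Among 17 genes of mitosis and the cell cycle, AURKA and TTI1 fell with tetracycline in WDM (median -0.15), but 16 of 17 were lower in WDM than in WT with tetracycline (median -0.55), 15 with arsenite, 10 untreated, and 8 and 10 in the granules. Over the 226 members the shares called lower in these comparisons were 50.9%, 55.3%, 19.5%, 25.7% and 32.7%, and over all genes 6.84%, 5.37%, 5.60%, 2.95% and 3.84%. All of the 17 start beyond 20 Mb, where the shares of members were 56.4%, 61.9%, 21.8%, 28.7% and 36.6%. Some of the 17 also stand in other lists, such as CDK5RAP1 in the mitochondrial one and CTNNBL1 and TTI1 in that of RNA processing. AURKA, the kinase of centrosomes and spindle, measured 174, 174 and 178 CPM in untreated WDM and 123, 150 and 122 CPM with tetracycline (log2 fold change -0.39, SE 0.10, edgeR adjusted p = 0.0262). In WT it measured 191, 203 and 203 CPM and 174, 225 and 206 CPM, so the difference between the lines was -0.22 untreated and -0.68 with tetracycline (edgeR adjusted p = 0.000105). CSE1L, the nuclear export factor of importin alpha and the most abundant member, measured 683, 680 and 693 CPM in untreated WDM against 861, 826 and 827 CPM in WT (-0.32, edgeR adjusted p = 0.0248). UBE2C, the ubiquitin carrier of the anaphase-promoting complex, was the exception, with 138, 132 and 123 CPM in untreated WDM against 84.9, 92.1 and 98.0 CPM in WT (0.48, edgeR adjusted p = 0.00776) and no called difference in the other 4 comparisons.

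In the other lists the genes called lower in WDM than in WT with tetracycline were 15 of 24 RNA-processing genes, 13 of 34 transcription genes, 9 of 11 of ubiquitin and proteolysis, 11 of 23 metabolic enzymes, 11 of 21 of membrane traffic, 9 of 17 of signalling, 6 of 12 mitochondrial genes, 5 of 8 of DNA replication and 5 of 15 of the cytoskeleton, against 50.9% of the 226 and 6.84% of all genes. Of the 67 members in no list 26 were lower. In this comparison 4.17% of members below 20 Mb were called lower, and 56.4% of those beyond it. The lists hold unlike shares of both sides. In the cytoskeleton list, for example, JAG1, MACROD2, FLRT3, KIF16B, BFSP1 and DSTN start below 20 Mb. The part of position in these counts was not tested.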

How the data were processed

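RNA of 30 libraries (ribosomal RNA removed, stranded kit, per the labels' protocols) was given as 1 table of whole-number gene counts, which the authors deposited unnormalized. The submitters' processing notes name Trimmomatic, STAR, Picard, featureCounts and GRCh38. How strand and overlapping genes were counted is not given in the sources used here. From the counts, CPM were computed over each library total (5906167 to 27419145 counts). Tests used edgeR 4.0.16 (robust quasi-likelihood, TMM scaling, filterByExpr with a minimum count of 10 and total of 15, Benjamini-Hochberg adjustment, threshold 0.05) in 3 fits: cytosol (18 libraries, 16670 genes), granules (12 libraries, 18366 genes) and both fractions with tetracycline or arsenite (24 libraries, 18141 genes). All 226 members passed the filter in each. The scripts were tested on simulated data.

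The members and lists were chosen with earlier results of these data known. Named genes are the 12 lowest of those called lower with tetracycline in WDM with groups apart, the 10 highest with at least 10 CPM in untreated WDM, the 8 most abundant in cytosol, the 5 with the smallest interaction p, the 3 highest and 3 lowest called with groups apart in each comparison of lines or fractions, the genes beside the limits, and 3 from each list. One gene that the rule names is not reported here. Other genes are named as complete lists of calls or were chosen after their values were seen.

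Same-numbered libraries deviated together (all 3 correlations over 0.1) for WT with and without tetracycline (0.331, 0.286 and 0.125). They also did so for WT with tetracycline and with arsenite (0.443, 0.110 and 0.540). The number may therefore pair those groups, but tetracycline-treated WT replicate 3 correlated more with another untreated WT replicate than with its own number. The main tests used no pairing, and the replicate block is given only as an alternative. Alternatives were DESeq2 1.42.0, RLE factors, library size alone, no filter, a replicate block, only the groups compared, and leaving out each library. Of the table's identifiers 60463 of 60664 were found in GENCODE v44, and 208 of the 226 members had the same start and end.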

Additional observations from a re-analysis of the deposited data

Results flagged for a closer look

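The tetracycline response of MYBL2 and FAM83D differed in direction between the lines in every library. For MYBL2 it was -0.15 on the log2 scale in WDM and 0.23 in WT. FAM83D, a spindle protein, measured 57.7, 61.8 and 57.4 CPM in untreated WDM and 47.8, 54.8 and 49.4 CPM with tetracycline, and 59.2, 62.9 and 65.5 CPM and 69.3, 77.0 and 76.0 CPM in WT, which gave -0.19 and 0.29. The difference itself did not pass the test for either gene (edgeR adjusted p = 0.826 for both).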

How the results depend on the processing

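Counts here are members called lower, and medians are log2 values over the 226. With library size alone the medians were 0.0021 for WT with tetracycline, -0.13 for WDM and 0.12 for WT with arsenite against untreated (27 lower in WT), 0.035 for WDM and 0.070 for WT with arsenite against tetracycline (15 lower in WT), and -0.12 and -0.32 for the lines untreated and with tetracycline. The lines in granules with arsenite then gave 49. With no low-count filter the interaction median was -0.27, WT with arsenite had 0.078 against untreated, and against tetracycline -0.028 with 24 lower. The untreated lines then gave -0.091 with 25 lower, and granules against cytosol in WT -0.33. With only the compared groups fitted, the counts were 0 for WT with tetracycline, 104 and 71 for the lines untreated and with tetracycline, and 19 for arsenite against tetracycline in each line. The medians were then 0.051 for WT with arsenite against untreated, -0.028 against tetracycline, and -0.19 for granules against cytosol in WT. Among the 153 members that overlap no gene on their strand, 21 fell with tetracycline in WDM.

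Leaving out 1 library gave 11 to 38 for WDM with tetracycline (medians -0.21 to -0.16), 0 to 7 for WT (0.03 to 0.06), 0 for the interaction (-0.25 to -0.19), 75 to 91 for WDM with arsenite against untreated (-0.22 to -0.19) and 29 to 36 for WT (0.02 to 0.04). For arsenite against tetracycline it gave 24 to 48 in WDM (-0.08 to -0.006) and 19 to 61 in WT (-0.08 to -0.05). For the lines it gave 19 to 32 untreated (-0.17 to -0.14), 94 to 123 with tetracycline (-0.41 to -0.36) and 103 to 116 with arsenite (-0.41 to -0.39), and in granules 17 to 64 (-0.44 to -0.36) and 33 to 64 (-0.42 to -0.31). Granules against cytosol gave 97 to 102 in WDM and 100 to 106 in WT (-0.28 to -0.19 in both). Of the named genes, the tetracycline response of SRC in WDM (0.03) ranged from -0.082 without tetracycline-treated WDM replicate 1 to 0.17 without replicate 2, and that of ADNP (-0.17) from -0.43 to 0.063 without the same libraries. The cause was not tested.

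With the replicate block the counts were 48 for WDM and 4 for WT with tetracycline (17 higher), 106 and 43 with arsenite against untreated, 51 and 45 against tetracycline, 51, 125 and 137 for the lines in cytosol, 45 and 62 in granules, and 104 and 106 for granules against cytosol. Of 45 same-numbered pairs of libraries 20 had a correlation over 0.1. Outside the WT cytosol groups no 2 groups had all 3 over 0.1, but single pairs had higher values. WDM and WT cytosol with tetracycline had 0.772, 0.703 and -0.207. WDM cytosol with arsenite and with tetracycline had 0.611, 0.287 and -0.097. What these libraries share was not tested.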
